A study of Saccharomyces cerevisiae with 8 samples.

Results

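The comparison set RNA of rad50delta cells against RNA of wild type cells, both taken 4 h after transfer into sporulation medium, the time that the labels call prophase. It used 2 of the 8 arrays of the series, 1 array a side, chosen by their titles. Both strains were diploid Saccharomyces cerevisiae of the SK1 background, which sporulates fast and synchronously. The wild type was strain MJL1720 and rad50delta was strain RKD101, and the labels name no other allele of either. Both cultures were grown in acetate presporulation medium, and RNA of both was extracted with glass beads and RNeasy columns and then selected for poly(A) tails. Affymetrix YG-S98 arrays were hybridised with biotin-labelled cRNA. Of the other arrays at 4 h, spo11Y135F (strain RKD1312) was extracted the same way and mre11delta (strain YMD1599) with Trizol. No condition has a replicate, so no difference below carries an error or a p-value, and each describes these arrays.

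Rad50 forms a complex with Mre11 and Xrs2 that budding yeast needs both to let Spo11 cut chromosomes in meiotic prophase and to process the cut ends. Meiotic genes are switched on in waves. Early genes, induced through Ime1, serve recombination and chromosome pairing, middle genes need the transcription factor Ndt80 and carry cells through the divisions and the start of spore formation, and late genes build the spore wall. Sum1 represses many middle genes before Ndt80 acts, and a checkpoint that senses unrepaired meiotic breaks restrains Ndt80.

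Signals are linear MAS5 values, 1 per probe set, and levels are compared only within a gene. A difference is log2(signal + 7) of rad50delta minus that of wild type, over the 5480 genes whose mean signal across the 8 arrays was at least 21, called the floor. The rad50delta array was brighter as a whole, with a median probe set signal of 176 against 97.3 and a difference of the median gene of 0.64. The 11 bacterial spike probe sets above the floor differed by a median of 0.17, with a range of -0.11 to 0.66. As deposited, 1623 genes were at least 2-fold higher in rad50delta (29.6% of the 5480) and 25 at least 2-fold lower (0.456%). With median centring of the arrays that split became 442 and 321, and with quantile normalization 558 and 241. Differences are therefore given relative to the median gene unless signals are quoted. On that scale 616 genes were at least 2-fold higher (11.2%), 139 at least 2-fold lower (2.54%), and 4725 (86.2%) in between. At 8-fold the counts were 49 higher and 2 lower. In 77 of the 616 and 18 of the 139 at least 1 of both signals lay below the floor, where the size depends on the pseudocount of 7.

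**Figure D1:**
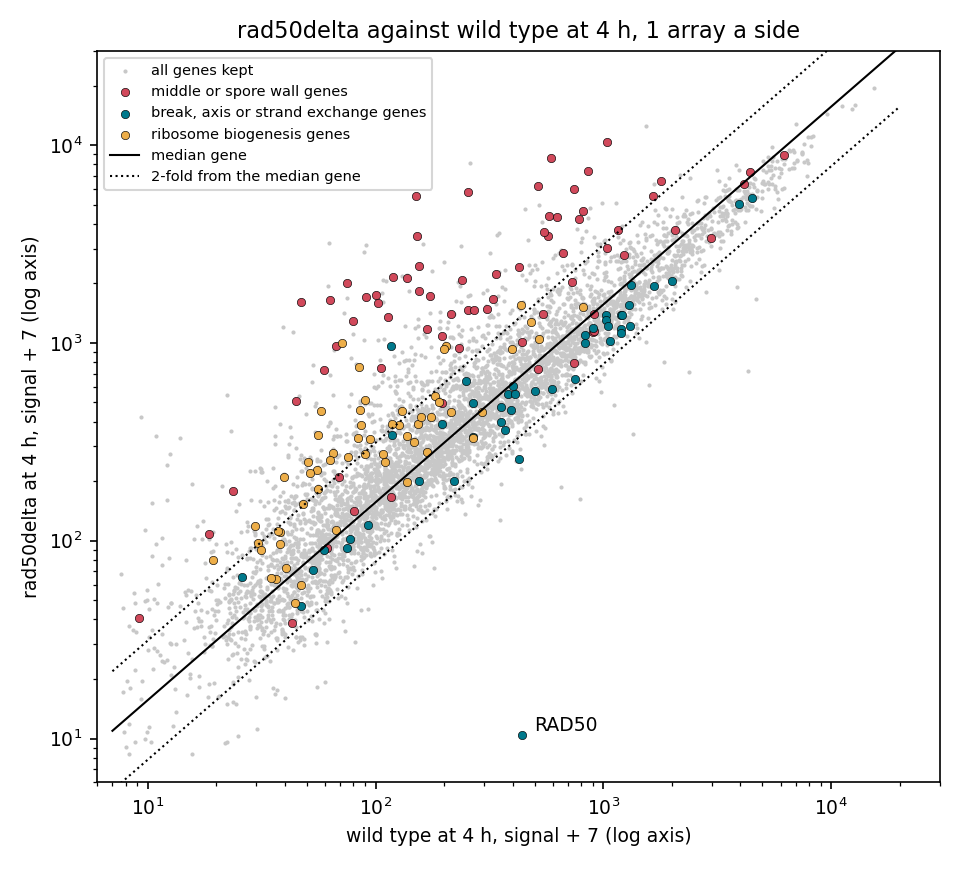
Signal plus 7 of each of the 5480 genes in wild type (x) and rad50delta (y) at 4 h, both on log axes, with the median gene as a solid line and 2-fold from it as dotted lines. Middle and spore wall genes lie above the upper dotted line in large part, early meiotic genes lie along or just below the solid line, and RAD50 lies far below the lower dotted line.

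RAD50 (YNL250W, chromosome XIV) checked the labels. Its signal was 3.4 in rad50delta at 4 h and 0.6 at 0 h. It was 433 in wild type, 272 in spo11Y135F and 758 in mre11delta at 4 h. Of the genes beside it, NRD1, a transcription termination factor, read 367 in wild type and 514 in rad50delta, and MPA43 read 44.3 and 41.1, so that both stayed within 2-fold of the median gene. The genes of its partners were present in both arrays. MRE11 read 148 in wild type and 192 in rad50delta, XRS2 85.9 and 114, and SPO11 349 and 469, with relative differences between -0.28 and -0.23. SAE2, a cofactor of end processing, had a mean under the floor and was not kept. Its signals were 10.1 in wild type and 43.2 in rad50delta.

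Genes that serve as strain markers were read too, and 10 of the 12 lay within 2-fold of the median gene, all but URA3 and LEU2. The wild type array at 0 h was extracted with Trizol and that of rad50delta with RNeasy, so strain and extraction cannot be told apart in any comparison of them at 0 h. URA3, of uracil synthesis, read 4.4 at 0 h and 2.5 at 4 h in rad50delta. In wild type it read 496 at 0 h and 14.8 at 4 h, so both strains lay below the floor at 4 h. LEU2, of leucine synthesis, has 3 probe sets that disagree. The gene-specific set chosen for it read 3855 in wild type and 1909 in rad50delta, and another set, also lower in rad50delta, read 1369 and 356. A shared set read 2.5 in wild type and 845 in rad50delta. That shared set was also low in mre11delta (9.8) and not in spo11Y135F (302), so the direction of LEU2 is not settled, although its chosen set counts among the 139 lower genes. TRP1, HIS3, ADE2 and LYS2 differed by between -0.23 and 0.01.

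Genes that start meiosis lay close to the median gene, with NDT80 apart. Of 13 entry regulators 1 was at least 2-fold higher and 0 lower, beside 11.2% and 2.54% of all genes, and their median difference was 0.05. The master regulator IME1 read 7616 in wild type and 10131 in rad50delta, a relative difference of -0.23. The kinase IME2 read 1821 and 3215, and SLZ1, of the mRNA methylation complex, read 5303 and 7830, at 0.17 and -0.08. NDT80 itself read 226 in wild type, 936 in rad50delta, 1689 in spo11Y135F and 165 in mre11delta. Its relative difference was 1.37. Its antagonist SUM1 read 146 in wild type and 176 in rad50delta, at -0.38. All 10 markers of sporulating cells, which include the middle genes NDT80, SPS1 and SPS4, were above the floor in both arrays. The lowest was a different gene in each. In wild type it was SPS1, at 145 against 3471 in rad50delta, and in rad50delta ZIP1, at 563 against 493 in wild type.

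Early genes of recombination and chromosome structure were close to the median gene or a little under it. Among all genes 11.2% were at least 2-fold higher and 2.54% lower, and in lists this short the counts do not stand apart from those shares. Of 12 genes of break formation, 0 were at least 2-fold higher and 1 (8.33%) lower, RAD50 itself. REC102 and REC114, partners of Spo11, read 1067 and 374 in wild type and 1015 and 545 in rad50delta. Of 14 genes of the chromosome axis and synaptonemal complex, 0 were higher and 1 (7.14%) lower. That gene was ZIP2, a synapsis initiation gene that read 419 in wild type and 251 in rad50delta. The median of the axis list was -0.53. All 14 lay below the median gene although 8 of them had the brighter signal in rad50delta, so the sign depends on the scaling. The cohesin subunit REC8 read 1991 and 2046, the axis gene HOP1 822 and 990, and the synaptonemal complex gene ZIP1 493 and 563. Of 19 genes of strand exchange and crossover 1 (5.26%) was higher and 0 lower, with a median of -0.25. DMC1, the meiotic recombinase, read 3950 in wild type and 5057 in rad50delta. The 1 higher member was EXO1, an exonuclease that resects DNA ends and acts in crossover formation, at 110 in wild type, 963 in rad50delta, 1281 in spo11Y135F and 172 in mre11delta.

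Middle meiotic genes were much higher in rad50delta. Of 41 kept members 30 (73.2%) were at least 2-fold higher and 0 lower, beside 11.2% and 2.54% of all genes, and the median difference was 2.07. As deposited 35 were higher, and with quantile normalization 30 were, relative to the median gene. The RNA of a whole culture cannot tell a larger share of cells at this stage from more RNA in each cell. The list and the members named beside the rule were chosen with values of these data known.

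Among the regulators of the divisions, the B-type cyclin CLB1 read 40.0 in wild type and 1607 in rad50delta. It read 2865 in spo11Y135F and 55.7 in mre11delta, so the 4 arrays formed a low and a high pair. Its relative difference of 4.46 was the largest of the list. CDC20, an activator of the anaphase-promoting complex, read 112 in wild type and 2155 in rad50delta. The polo kinase CDC5, which drives exit from pachytene, read 619 and 4311, and the cyclins CLB3 and CLB4 read 161 and 232 in wild type against 1165 and 2063. AMA1, the meiosis-specific activator of the same complex, read 189 and 489 and stayed at 0.70. CLB5, an S phase cyclin that is also a middle gene, read 1029 and 3026, at 0.90.

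Genes of the prospore membrane, which encloses each nucleus, showed a wide range. SPO20, a SNARE of membrane fusion, read 149 in wild type and 2452 in rad50delta, at 3.34. SMA2 and SMA1, both needed for membrane assembly, read 36.6 and 68.1 in wild type against 1125 and 1689. SPO21 and ADY4, of the outer plaque of the spindle pole body, read 166 and 59.8 in wild type against 1721 and 963. MPC54, of the same plaque, read 510 and 735, at -0.12, and the leading edge gene ADY3 read 1225 and 2769, at 0.53. Members of the same structure were thus found both within 2-fold of the median gene and far above it.

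Kinases of spore formation were among the largest differences. SMK1, a MAP kinase of spore wall assembly, read 68.1 in wild type, 2000 in rad50delta, 3680 in spo11Y135F and 13.3 in mre11delta. SPS1, a kinase of the STE20 family, read 145 in wild type, 3471 in rad50delta, 6495 in spo11Y135F and 44.3 in mre11delta. GIP1, a subunit that directs the phosphatase Glc7 to forming spores, read 93.6 in wild type and 1733 in rad50delta. Members near or under the median gene were FKS3, NUD1, RMD6, SHC1 and SPO1 beside MPC54, and the lowest was NUD1 at -0.81.

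Spore wall and late sporulation genes followed the same pattern in part. Of 30 kept members 19 (63.3%) were at least 2-fold higher and 0 lower, beside 11.2% and 2.54% of all genes, with a median of 1.81. SGA1, the glucoamylase that degrades glycogen in sporulation, read 143 in wild type and 5549 in rad50delta at 4 h. At 0 h it read 1234 in rad50delta and 1663 in spo11Y135F, both extracted with RNeasy, and 192 in wild type and 292 in mre11delta, both extracted with Trizol. SPR2 read 247 in wild type, 5806 in rad50delta and 2.9 in mre11delta. OSW1 and GAS2, both of spore wall assembly, read 72.8 and 84.0 in wild type against 1291 and 1691, and RRT12, a protease of the outer spore wall, 56.1 against 1635. CDA1, a chitin deacetylase, read 540 and 3628, and LDS2, of the spore lipid droplet, 1793 and 6558. Of the enzymes that make the dityrosine of the outer wall, DIT1 read 73.7 in wild type and 134 in rad50delta, at 0.16. DIT2, of the same pathway, read 2.2, below the floor, and 33.6, and was among the 19 called higher. So was CTT1, at 11.5, also below the floor, and 101. SPS100 was not, at 110.5 in wild type, 160 in rad50delta and 41.5 in spo11Y135F, a relative difference of -0.14. AQY1, a spore water channel, and SRT1, a polyprenol synthase, were high in both arrays, at 6192 and 2964 in wild type and 8876 and 3374 in rad50delta.

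**Figure D2:**
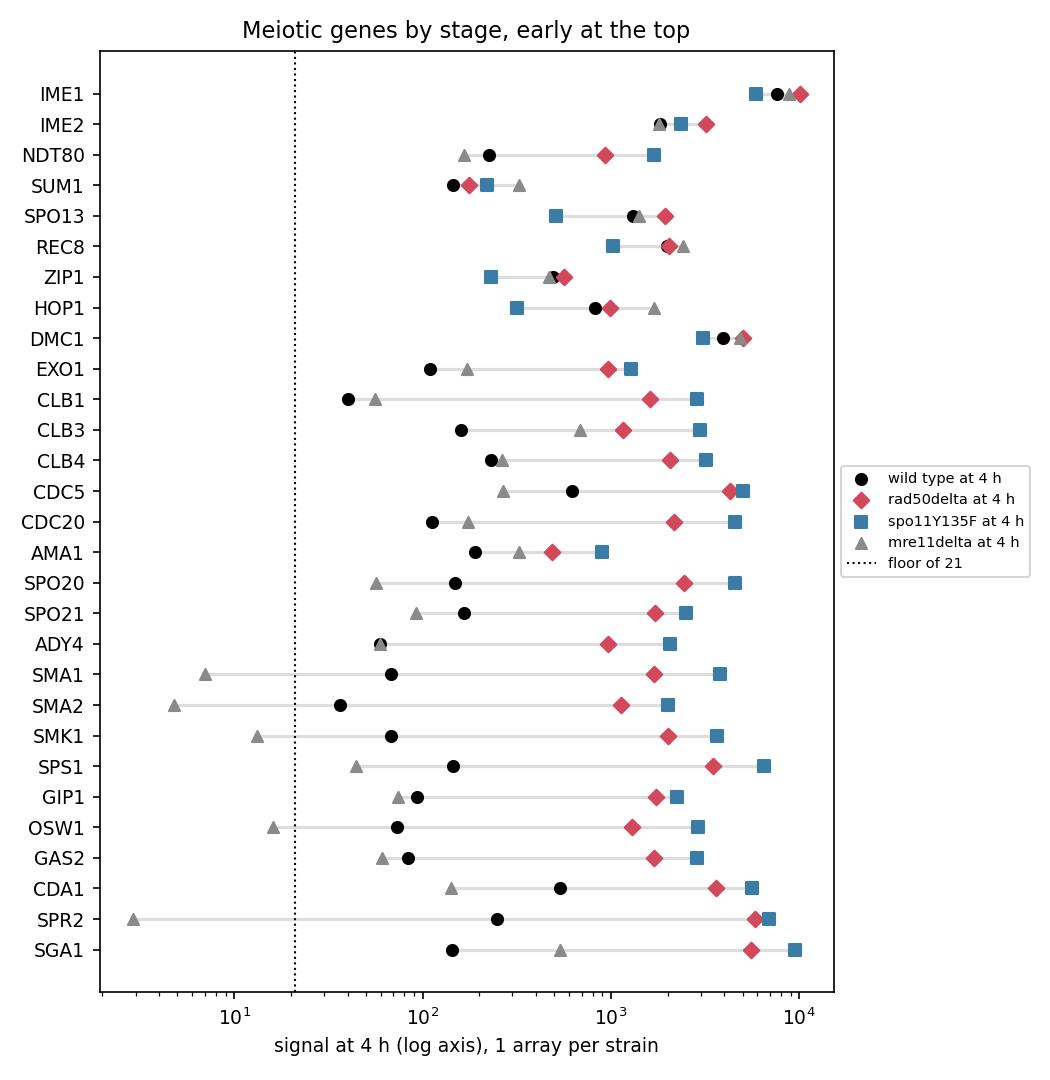
Signal at 4 h (log axis) of 29 meiotic genes in the 4 strains, 1 array each, ordered roughly from early to late. For NDT80 and for every gene from EXO1 down rad50delta and spo11Y135F lie to the right of wild type and mre11delta. Among the genes above EXO1, HOP1 runs from 317 in spo11Y135F to 1691 in mre11delta.

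Several of the largest differences outside the lists were of genes with no standard name. YOL024W, which has no standard name, differed by 5.03, at 55.8 in wild type, 3190.5 in rad50delta, 4351 in spo11Y135F and 66.2 in mre11delta. The ubiquitin-conjugating enzyme UBC11 read 84.2 in wild type and 3123 in rad50delta, at 4.46. SRD1 read 15.2 in wild type, below the floor, and 537 in rad50delta. GAT4, a GATA-type zinc finger gene, read 2.3 in wild type, below the floor, and 414 in rad50delta, at least 19.7-fold above the floor itself. CTS2, similar to chitinases, read 3.9 and 330.3, and PRM2, a membrane protein of the pheromone response, 5.1 and 233. Both were below the floor in wild type. YPR078C, YJL043W, YGL230C and YFL040W, also without a standard name, read between 32.3 and 254 in wild type and between 1203 and 8082 in rad50delta. Of the 49 genes at least 8-fold higher, 15 were in the middle or spore wall lists, 29 were in no list, and 13 had no standard name. All 20 of the largest differences on this side except RPL22B had a lower signal in mre11delta than in rad50delta by more than 3-fold.

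The rad50delta array lay between wild type and spo11Y135F for most of these genes. With each array centred on its median, 35 of the 41 middle genes were higher in rad50delta than in wild type and higher still in spo11Y135F, as were 1566 of all 5480 genes (28.6%). Of the 30 spore wall genes 21 had that order. In the axis list the order was reversed, with all 14 members below wild type in rad50delta and lower still in spo11Y135F, beside 2178 of all genes (39.7%). The median of the middle list against wild type was 2.07 for rad50delta, 2.69 for spo11Y135F and -1.25 for mre11delta. These comparisons share the wild type array, so a low or high value there moves all of them. Relative to the median gene, 23.5% of genes were at least 2-fold higher in spo11Y135F than in wild type and 18.9% lower, and in mre11delta 7.76% and 6.04%. The MRE11 signal in the array labelled mre11delta, 108, did not set it apart, so its genotype rests on the labels alone.

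Genes of ribosome production were also higher in rad50delta than in wild type. Of 56 ribosome biogenesis genes 26 (46.4%) were at least 2-fold higher and 0 lower, beside 11.2% and 2.54% of all genes. Their median was 0.94. With a pseudocount of 50, which damps differences of dim genes, 15 were higher, beside 419 of all 5480 genes, and the median was 0.66. NSR1, a nucleolar protein of rRNA processing, read 64.0 in wild type, 988 in rad50delta, 1110 in spo11Y135F and 829 in mre11delta, so that wild type stood alone as low. The RNA helicases DBP3 and DRS1 read 77.6 and 50.9 in wild type against 746 and 445 in rad50delta. Of 45 cytosolic ribosomal protein genes 14 (31.1%) were higher and 0 lower, with a median of 0.66, and 9 of the 45, read by probe sets that other genes can share, are uncertain. RPL22B, a minor copy of a large subunit protein, read 6.8 in wild type, below the floor, and 324 in rad50delta. Its difference ran from 2.21 to 4.71 across the alternative settings. RPS9A and RPS27A, of the small subunit, read 62.5 and 299 in wild type against 331 and 1538. Of 20 subunits of RNA polymerases I and III, 6 (30.0%) were higher. Among them were RPA43 at 9.0, below the floor, and 94.8, and RPA12 at 24.1 and 153. With a pseudocount of 50 only 1 of the 20 was higher, beside 419 of all 5480 genes. Of 37 translation factors and tRNA synthetases 5 (13.5%) were higher and 1 (2.7%) lower, near the shares of all genes.

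The wild type array was the lowest of the 4 for many of these genes. By signal it was the lowest for 51 of 56 ribosome biogenesis genes and all 45 ribosomal protein genes, beside 3011 of all 5480. With each array centred it was the lowest for 33 (58.9%) and 31 (68.9%), beside 17.6% of all genes. Relative to the median gene, the median of the biogenesis list was 0.04 from 0 h to 4 h within rad50delta, whose arrays share an extraction method. Within wild type it was -1.77, but there the 0 h array was extracted with Trizol, so time and extraction cannot be told apart. The ribosomal protein list moved by -1.41 within rad50delta and -2.64 within wild type.

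**Figure D3:**
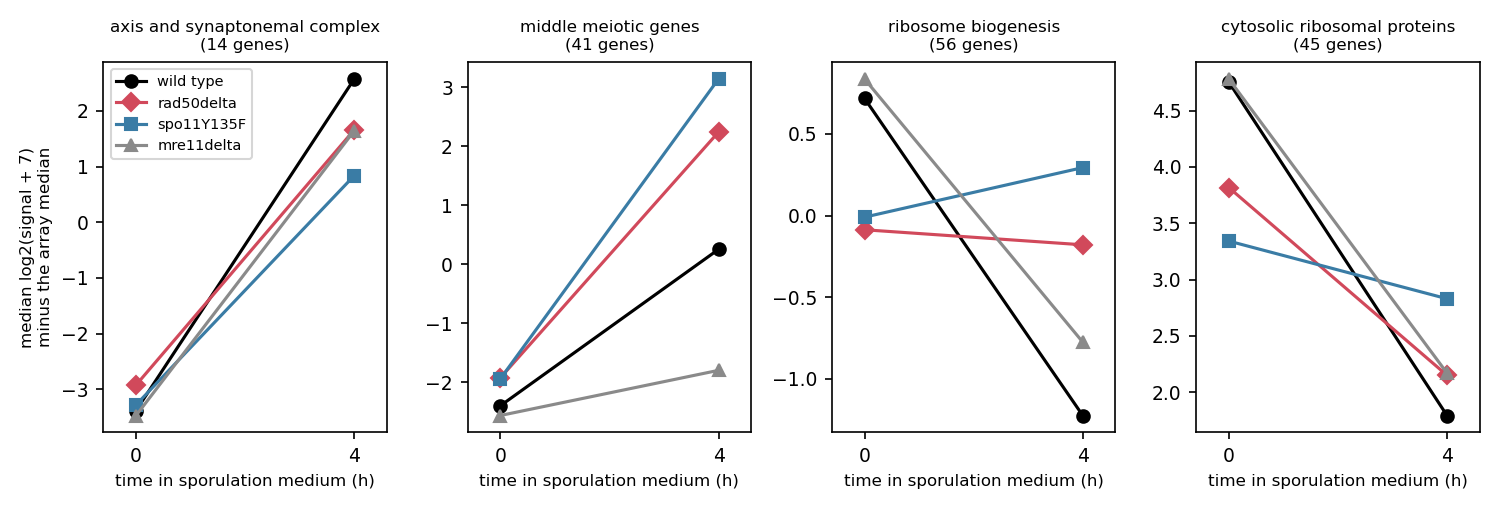
Median of 4 gene lists at 0 h and 4 h (x) in each strain, as log2(signal + 7) minus the median of that array (y), 1 array per point. At 4 h rad50delta lies between wild type and spo11Y135F in all 4 panels, with the middle genes at 2.24 in rad50delta and 0.25 in wild type, and the ribosome biogenesis genes at -0.18 and -1.22.

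Markers of dividing cells and of mating-type specific cells were measured beside these groups. Of 29 genes of mitotic G2/M and the M/G1 boundary, 13 (44.8%) were at least 2-fold higher and 1 (3.45%) lower, BUD4. Among all genes the shares were 11.2% and 2.54%. CLB1, CDC5 and CDC20 are middle genes too, and without them 10 of 26 were higher. With a pseudocount of 50, 8 of the 29 were higher and the median was 0.37 in place of 0.91, and with both signals required to reach 21 the count was 8 of 20. As deposited, the summed signal of the list was 3647 in wild type, 17315 in rad50delta, 16953 in spo11Y135F and 12090 in mre11delta. The arrays differ in brightness, and the sums include CLB1, CDC5 and CDC20. Those genes read 1607, 4311 and 2155 in rad50delta and 2865, 5054 and 4563 in spo11Y135F. In wild type they read 40.0, 619 and 112, and in mre11delta 55.7, 268 and 174. Of the 29 members, 9 were below the floor in wild type and 0 in rad50delta. The cell separation genes DSE2, DSE4 and EGT2 act after division. In wild type they read 8.6 and 9.5, both below the floor, and 22.6, against 186, 111 and 219 in rad50delta. At 0 h they read 729, 105 and 321 in rad50delta and, with the other extraction, 937, 111 and 468 in wild type. The mitotic cyclin CLB2 read 20.2 in wild type, below the floor, and 52.6 in rad50delta at 4 h. Of 24 haploid and mating-type specific genes, which an a/alpha diploid keeps low, 5 (20.8%) were higher and 0 lower, beside 11.2% and 2.54% of all genes. Their median was 0.36, with 14 members above the median gene and 10 below it. With a pseudocount of 50 the count of higher members was 2 and the median 0.02. The largest differences in the list were of STE18 and STE4, subunits of the pheromone-signalling G protein. They read 35.3 and 495 in wild type against 368 and 2458. As deposited, the summed signal of the haploid list, STE4 included, was 4122 in wild type, 9140 in rad50delta, 11140 in spo11Y135F and 6269 in mre11delta. The part of dividing or haploid cells in the other differences was not tested.

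Among genes of sugar use, single members differed widely while most lay within 2-fold of the median gene. The glucose kinase HXK2 read 39.2 in wild type, 530 in rad50delta, 328 in spo11Y135F and 329 in mre11delta. Wild type alone was low for it. Of 17 hexose transport genes 5 (29.4%) were at least 2-fold higher and 0 lower, including HXT4 at 55.9 and 684 and HXT14 at 72.4 and 1108. With each array centred, wild type was the highest of the 4 arrays for 7 of the 17 and the lowest for 5. GAL7, of galactose breakdown, read 46.3 in wild type, 765 in rad50delta and 37.3 in mre11delta. Of 23 glycolysis and fermentation genes 3 (13.0%) were higher, a share near the 11.2% of all genes, and the median was -0.02. The cysteine synthesis gene CYS3 read 5.1 in wild type, 154 in rad50delta, 232 in spo11Y135F and 168 in mre11delta, with wild type alone below the floor.

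Most genes of the DNA damage and telomere lists lay within 2-fold of the median gene, as did 86.2% of all genes. Of 24 damage response genes 4 (16.7%) were at least 2-fold higher and 2 (8.33%) lower, beside 11.2% and 2.54% of all genes, with a median of 0.06. The ribonucleotide reductase genes RNR1, RNR2 and RNR4 lay within 2-fold of the median gene, at -0.08, 0.17 and 0.32. DIN7, a mitochondrial nuclease related to EXO1, read 201 in wild type, 1274 in rad50delta, 3338 in spo11Y135F and 330 in mre11delta, and the checkpoint kinase TEL1, which Mre11 complexes recruit to breaks, 184, 660, 1377 and 300. DDR48, a stress protein, read 74.4 in wild type and 23.9 in rad50delta. Of 19 silencing and telomere maintenance genes 2 (10.5%) were higher and 1 (5.26%) lower, among them RIF1 at 322 and 1349 and the telomerase subunit EST1 at 47.5 and 26.7. RAD59, of strand annealing and in no list, read 174 in wild type, 65.6 in rad50delta, 54.0 in spo11Y135F and 61.4 in mre11delta, with wild type alone high.

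Genes lower in rad50delta were fewer and the differences smaller. After RAD50 the largest was OAC1, a mitochondrial carrier of oxaloacetate and isopropylmalate, which read 4292 in wild type, 711 in rad50delta, 648 in spo11Y135F and 8134 in mre11delta. Its relative difference was -3.23. Several others serve leucine, isoleucine and valine synthesis. BAT1, the mitochondrial branched-chain aminotransferase, read 2383 in wild type, 702 in rad50delta, 307 in spo11Y135F and 3791 in mre11delta. LEU1, isopropylmalate isomerase, read 4682, 1654, 557 and 5569 in the same order. The permease BAP2, which imports these amino acids, read 1583, 606, 184 and 1465. Each of these 4 genes was low in rad50delta and spo11Y135F and high in wild type and mre11delta.

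Other genes of this pathway, named after their values were seen, lay closer to the median gene. The synthesis genes LEU4, ILV2 and ILV3 read 1079, 392 and 1069 in wild type and 809, 276 and 806 in rad50delta. Their differences were between -1.14 and -1.05. In spo11Y135F they read 185, 392 and 572, and in mre11delta 6037, 2261 and 3766, so ILV2 read alike in spo11Y135F and wild type. ILV5 read 2676 in wild type, 2266 in rad50delta, 6122 in spo11Y135F and 6765 in mre11delta, at -0.88. The pathway's regulator LEU3 read 148 and 323, at 0.44, and LEU9, ILV1, ILV6 and BAT2 were within 2-fold of the median gene. In the wider amino acid synthesis list 6 of 56 (10.7%) were lower and 3 (5.36%) higher, beside 2.54% and 11.2% of all genes, with a median of -0.15. The higher ones were HIS1, HIS7 and SER33. With a pseudocount of 50 only 2 of the 56 were lower.

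Others among the 20 largest differences on this side belong to several processes. ALD5, a mitochondrial aldehyde dehydrogenase, read 1340 in wild type and 341 in rad50delta, at -2.60. The transcription factor CIN5 read 1844 and 798.4, and AFT1, the activator of iron uptake genes, 141 and 67.8. ISU2, a scaffold for iron-sulfur clusters, read 1107 in wild type and 481 in rad50delta, although the iron list as a whole held 2 lower and 1 higher gene of 28. NMA1 and TNA1, of NAD synthesis and nicotinic acid uptake, read 345 and 544 in wild type against 121 and 298. MET3, the first enzyme of sulfate assimilation, read 349 and 187, while its list held 5 higher and 3 lower of 34. Among all genes 11.2% were higher and 2.54% lower.

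**Figure D4:**
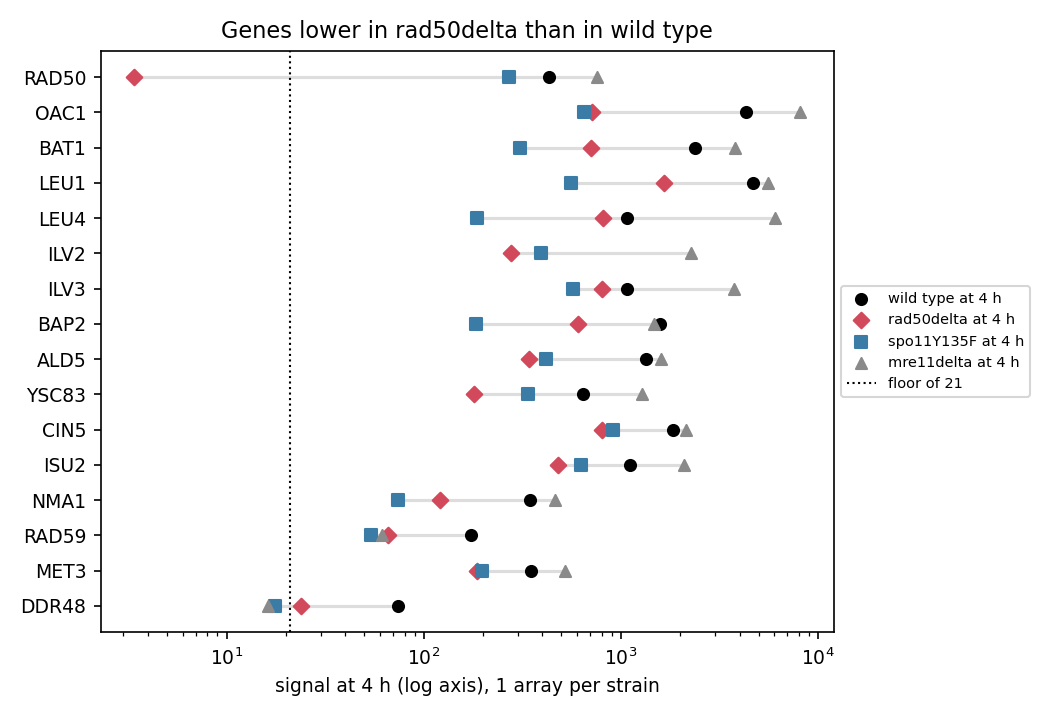
Signal at 4 h (log axis) in the 4 strains, 1 array each, of RAD50 and 15 genes lower in rad50delta than in wild type relative to the median gene. For OAC1, BAT1, LEU1 and BAP2 rad50delta and spo11Y135F lie to the left of wild type and mre11delta, and of the genes drawn only RAD50 lies below the floor of 21 in rad50delta.

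Few genes set rad50delta apart from all other strains at 4 h. Relative to the median gene of each pair, 5 genes (0.0912%) were at least 2-fold above all 3 other arrays and 9 (0.164%) at least 2-fold below. Those above were YAL065C, GIT1, ISD11, NCA3 and NCW2. YAL065C, near a chromosome end and without a standard name, read 1402 in rad50delta and between 213 and 449 in the others. The glycerophosphoinositol transporter GIT1 read 230 and between 48.8 and 52.8, and NCA3 1967 and between 358 and 555. Of those below, RAD50 had the widest gap. YSC83 read 181 in rad50delta and between 338 and 1278 in the others. MET17, of methionine synthesis, read 309 and between 413 and 1747. URA3, SPT6 and ATM1 were under the floor in both wild type and rad50delta, so no size is given for their gaps. YIL171W read 44.5 and between 66.7 and 216, and the remaining members were ribosomal RNA loci.

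**Figure D5:**
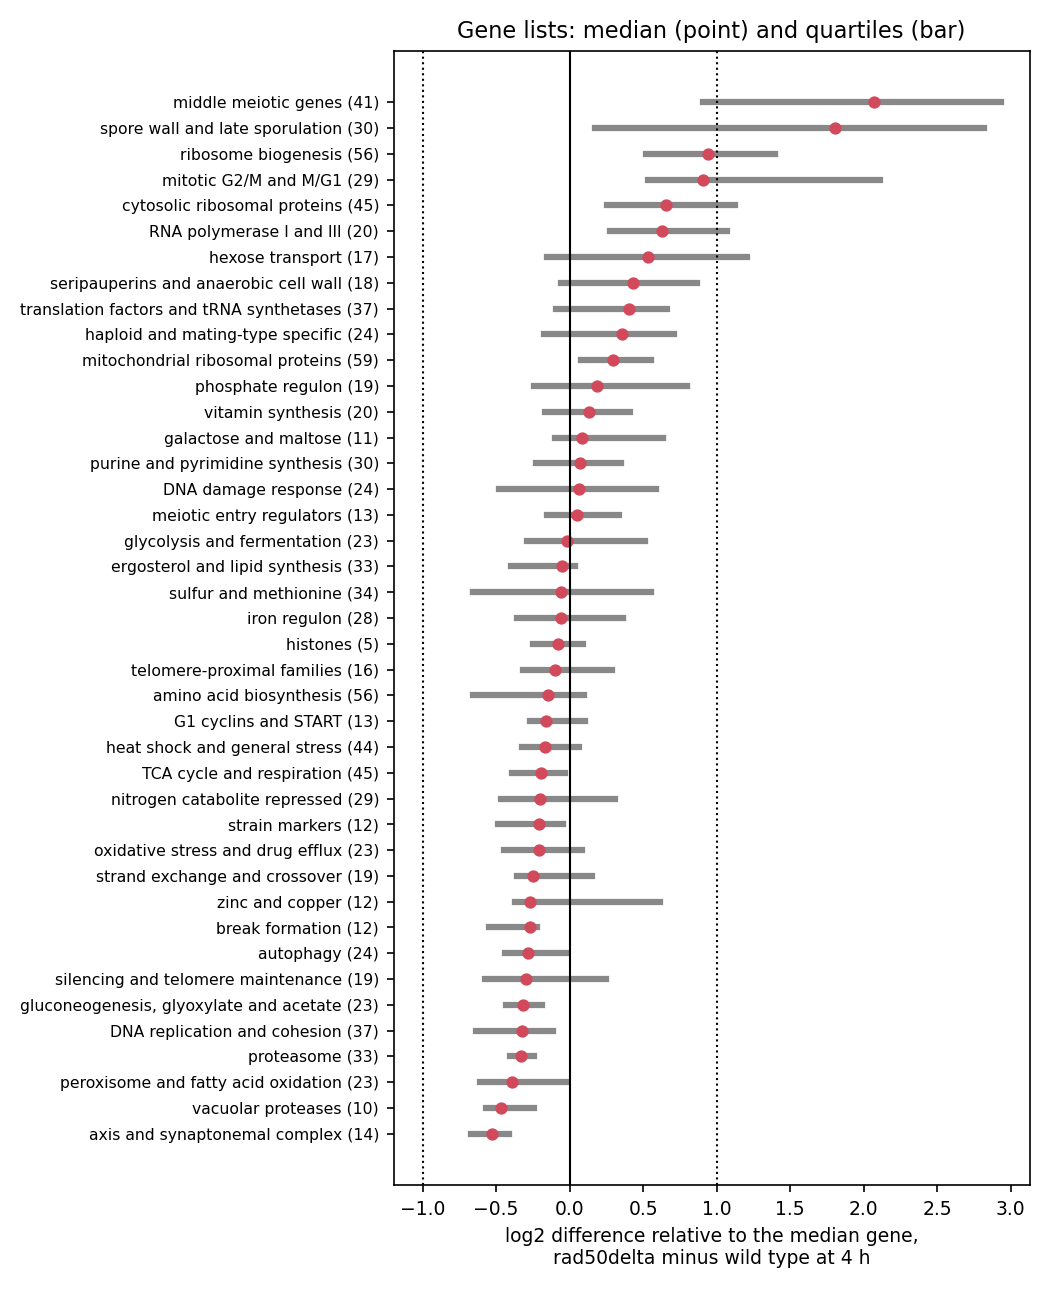
Median (point) and quartiles (bar) of the relative log2 difference between rad50delta and wild type at 4 h in the gene lists, with the number of genes kept in brackets. The lists of mutated genes and of mitochondrially encoded genes, which keep few genes, are not drawn. The medians of the middle list, at 2.07, and the spore wall list, at 1.81, lie beyond the dotted line at 2-fold. Those of all other lists drawn lie within it, down to the axis list at -0.53.

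The medians of the other lists ran from -0.46 for the vacuolar proteases to 0.48 for the 3 mitochondrially encoded genes. Among all genes 11.2% were at least 2-fold higher and 2.54% lower. Of 33 proteasome genes 0 were at least 2-fold higher and 0 lower, as were 0 of 13 G1 cyclin and START genes and 0 of 33 ergosterol and lipid genes. Of 45 TCA cycle and respiratory genes 3 (6.67%) were higher and 0 lower. CYC1, the main cytochrome c, was among the higher genes, at 216 in wild type and 749 in rad50delta. Of 44 heat shock and stress genes 2 (4.55%) were higher and 1 (2.27%) lower. Of 24 autophagy genes 2 (8.33%) were higher, ATG2 and ATG3 at 18.2 and 655 in wild type against 146 and 2429. ATG2 was below the floor in wild type. Of 37 replication and cohesion genes 0 were higher and 2 (5.41%) lower, RFC5 and the cohesin-associated PDS5. PDS5 read 598 in wild type and 430 in rad50delta. Of 19 phosphate regulon genes 4 (21.1%) were higher, among them PHM8 and PHM6 at 184 and 415 against 787 and 1512.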

How the data were processed

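The deposited table holds signal intensities on a linear scale, which the authors computed with MAS5, per the submitters' processing notes, from 3 microg of poly(A) RNA per array per the labels' protocols. The MAS5 version and the array scaling were not given in the sources used here. On each array the trimmed mean signal was between 295 and 558, and between 92.1% and 96.4% of its genes exceeded the floor of 21. The number of arrays limits the precision.

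Probe sets were named from the platform annotation and the RefSeq R64 gene table. Of 9335 probe sets, 6504 carry 1 gene, 328 several, 60 are controls, and that annotation names no gene for 2443. The 5656 genes were each read from 1 probe set, gene-specific before shared, then the brightest. Of the 5480 genes kept, 191 have only a shared set. Among 280 genes with several sets above the floor, sets gave opposite signs in 102, and in 12 of the 53 past 2-fold. Among named genes LEU2 and APE2 were such cases.

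Differences were taken as log2 of the signal plus 7 in Python 3.11.15 with pandas 2.3.3 and numpy 2.4.6, and the calculation was tested on simulated data. No test is possible with 1 array a side. The 43 gene lists, and the comparison itself, were chosen with earlier results of these data known. An entry that an outdated alias had put in the wrong list was removed after values were seen. Genes were named by a written rule. It takes the 20 largest differences on each side with a gene-specific set and a signal of at least 100, the 10 largest gaps on each side from the other strains, the mutated and marker genes, and up to 5 members past 2-fold per list. Other members were named after their values were seen. Alternatives covered scaling, pseudocount, floor, probe set choice and fold.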

Additional observations from a re-analysis of the deposited data

Results flagged for a closer look

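Of 506 probe sets that the annotation used here does not name and whose brighter signal of both arrays was at least 100, 72 (14.2%) were at least 2-fold higher in rad50delta relative to the median gene and 11 (2.17%) lower. They lie outside the gene comparisons, and the 3 largest differences are given because the signal exceeded that of wild type. Probe set 3643_i_at differed by 5.45, with 519 in rad50delta at 4 h and between 0.5 and 13.7 in the other 7 arrays, rad50delta at 0 h included. Probe set 6984_at differed by 4.42, at 1505 in rad50delta, 3123 in spo11Y135F, 38.3 in wild type and 38.8 in mre11delta. Probe set 3694_at differed by 3.77, at 1760 in rad50delta, 4450 in spo11Y135F, 76.0 in wild type and 71.8 in mre11delta.

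In 4 gene lists the median change from 0 h to 4 h, relative to the median gene, ran in opposite directions within rad50delta and within wild type, by at least 0.3 each. The difference was not tested, and extraction differed between the times in wild type alone. The RNA polymerase I and III list changed by 0.30 in rad50delta and -1.30 in wild type. The iron regulon changed by -0.32 and 0.41, the vacuolar proteases by -0.76 and 0.53, and the oxidative stress and drug efflux list by -0.35 and 0.44.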

How the results depend on the processing

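No paired analysis was possible because each strain and time has 1 array and the labels carry no replicate numbers, and for the same reason no array could be left out. As deposited, the counts of genes at least 2-fold higher and lower, 1623 and 25, became 442 and 321 with median centring and 558 and 241 with quantile normalization, which moved the median gene to -0.22 and -0.10. At 4-fold they became 364 and 3, and relative to the median gene 152 and 13. The lower count as deposited became 11 with a pseudocount of 50, 43 with no floor, 14 with a floor of 70 and 15 with both arrays at or above 21. The 139 lower genes relative to the median gene became 49 with a pseudocount of 50. The 5 genes above all other strains became 3 with a pseudocount of 50 and 9 with no floor. The 9 below became 17 with a pseudocount of 1, 2 with a pseudocount of 50 and 4 with both arrays at or above 21. LEU2 reversed, from -1.66 to 0.54, with the mean of its probe sets. The cause of these shifts was not tested. The middle list kept 29 or 30 members at least 2-fold higher and 0 lower relative to the median gene under every alternative at 2-fold, and the spore wall list between 17 and 20 higher and 0 lower. Counts in other lists depended on the pseudocount. With a pseudocount of 50 the members higher went from 26 to 15 in ribosome biogenesis, 6 to 1 in RNA polymerases I and III, 13 to 8 in G2/M, 5 to 2 in the haploid list, 5 to 3 in both the sulfur and the translation lists, and the lower amino acid genes from 6 to 2. Signals near the floor limit the size of a difference.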
